A study of Mus musculus with 35 samples.

Results

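Fxyd5, Atp1b1 and Atp1b3 encode a regulator and a pair of beta subunits of the sodium-potassium ATPase, and they were followed in microglia sorted from the midbrain, striatum and prefrontal cortex (PFC) of the mouse. They are 3 of the 21236 genes in the deposited count table, and all 3 were present in it. They were chosen by symbol with differences between regions in these same data already known, so their differences between regions are given as a description, without a test. Differences between the sexes and relations between the genes over mice did not enter the choice and were tested.

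The study sorted tdTomato-positive cells from 6 male and 6 female adult mice, took 3 regions per mouse and sequenced each sample on its own, which gave 35 samples. There were 6 samples for each region and sex, except 5 from the male PFC. All mice, in every group, carried 1 copy each of Tmem119-2A-CreERT2 and Ai14(RCL-tdTomato)-D and received tamoxifen, and there was no untreated or Cre-negative group. The Cre was driven from Tmem119, a gene of resident microglia. The sort thus selected for cells in which that gene was active enough for the reporter to be switched on.

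The sodium-potassium ATPase pumps sodium out of a cell and potassium into it at the cost of ATP. Its alpha subunit does the catalysis, its beta subunit is needed for folding and for delivery to the plasma membrane, and a small FXYD protein can associate with the pair and modify its activity. FXYD5, also called dysadherin, is an FXYD protein with an unusually long extracellular part and is known for effects on adhesion between epithelial cells. The beta1, beta2 and beta3 subunits come from Atp1b1, Atp1b2 and Atp1b3, and in brain tissue beta2 is known mainly from astrocytes.

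The samples held between 37680501 and 54131421 counts, with a median of 47378508. Levels are given as CPM, counts scaled to a common library size with TMM factors, and 3 counts, used here as the limit of detection, correspond to at most 0.0789 CPM. The 10 microglial markers summed to between 37801 and 48410 CPM in every sample. The 10 neuronal markers summed to 6.40 ± 1.41 CPM in midbrain (SD, n = 12), 11.6 ± 2.97 in striatum (n = 12) and 17.3 ± 6.34 in PFC (n = 11). The 7 oligodendrocyte markers reached larger sums, on average 398 CPM in midbrain, 477 in striatum and 335 in PFC. Their highest sum was 833 CPM, in a striatum sample. Markers of ependyma and choroid plexus averaged 2.58, 18.4 and 0.0472 CPM in the same order, with a striatum sample at 146 CPM. The part of oligodendrocyte or ependymal RNA in the levels of single genes was not tested. Markers of border macrophages, of which Lyve1 was not among the genes tested and Cd163 was at or under 3 counts in most samples, summed to between 2.13 and 18.1 CPM in all samples but 1. The exception was the midbrain sample of mouse 6, at 123 CPM, of which Ms4a7 made up 97.9 CPM. With bulk samples, fewer cells of a type and less RNA per cell cannot be told apart.

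Fxyd5 (ENSMUSG00000009687) lies on the minus strand of chromosome 7, at chr7:31032722-31042481 of GRCm38, and its annotated exons cover 4192 bases. Atp1b1 (ENSMUSG00000026576) lies on the minus strand at chr1:164437109-164458355, with 3081 exonic bases. Of these, 575 are shared with exons of Nme7 on the opposite strand, and since the library kit does not keep the strand, reads from the shared stretch cannot be told apart. Nme7 itself was at 8.22 ± 1.48 CPM in midbrain, 7.49 ± 1.41 in striatum and 8.36 ± 1.49 in PFC. Atp1b3 (ENSMUSG00000032412) lies on the minus strand at chr9:96332655-96364442, with 2389 exonic bases and no overlapping gene.

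The reference sequence just before each gene is shown as background, and a relation between it and the levels was not tested. The stretches are RefSeq promoter sequence of GRCm38.p6, from chr7:31042482-31042581, chr1:164458356-164458605 and chr9:96364443-96364681, written 5′ to 3′ on the minus strand. Capitals mark a GC box (GGGCGG or its reverse complement) or, in Atp1b1 only, a CCAAT box on the reverse strand.
Fxyd5: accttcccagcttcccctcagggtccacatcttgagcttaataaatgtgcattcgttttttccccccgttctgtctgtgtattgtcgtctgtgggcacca
Atp1b1: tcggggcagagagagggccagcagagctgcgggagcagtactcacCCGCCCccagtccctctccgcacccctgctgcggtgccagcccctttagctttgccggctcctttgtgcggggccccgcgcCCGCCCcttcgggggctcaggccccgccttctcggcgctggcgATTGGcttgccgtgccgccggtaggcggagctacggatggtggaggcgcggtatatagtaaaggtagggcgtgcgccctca
Atp1b3: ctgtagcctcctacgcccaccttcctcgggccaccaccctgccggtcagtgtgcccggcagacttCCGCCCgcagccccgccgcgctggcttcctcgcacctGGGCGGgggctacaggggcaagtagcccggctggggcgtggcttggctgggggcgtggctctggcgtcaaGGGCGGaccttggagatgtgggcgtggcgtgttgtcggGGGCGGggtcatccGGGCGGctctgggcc

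Over the whole RefSeq window of 300 bases around each start, of which only the part above is printed, the GC content was 57.3% for Fxyd5, 71.0% for Atp1b1 and 76% for Atp1b3. The GC box was found 0 times in the window of Fxyd5, 2 times in that of Atp1b1 and 6 times in that of Atp1b3, and 35.7% of 32851 windows of the same length hold it. The sequence CCAAT was found 2 times in Atp1b1 and not in the others, against 37.4% of all windows. TATAAA (13.6% of windows), the AP-1 sequence TGANTCA (7.81%) and the PU.1 sequence GAGGAAGT (3.20%) were found in none of the 3 windows on either strand. For Fxyd5 the window follows the RefSeq start, and 13 of its 14 GENCODE transcripts start beyond the window, at least 185 bases downstream of that start. These matches are only a property of the reference, since the series measured RNA and nothing at these sites.

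Fxyd5, the FXYD regulator, was high in midbrain microglia, lower in the striatum and lowest in the PFC. In midbrain its lowest, median and highest values were 16.1, 18.6 and 34.5 CPM (mean 20.7 ± 5.58, SD, n = 12). In striatum they were 3.45, 6.35 and 11.4 CPM (6.67 ± 2.84, n = 12). In PFC they were 1.10, 2.57 and 4.77 CPM (2.64 ± 1.04, n = 11). Every midbrain sample lay above every sample of the other two regions, whereas striatum and PFC overlapped between 3.45 and 4.77 CPM. These levels rested on 689 to 1587 counts per sample in midbrain, 138 to 572 in striatum and 57 to 222 in PFC, all far above the 3 counts of the detection limit.

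From the fit across all genes, the Fxyd5 level in the PFC was 7.81-fold lower than in the midbrain (log2 fold change -2.96, SE 0.22). In the striatum it was 3.08-fold lower than in the midbrain (-1.62, SE 0.20). The striatum was 2.53-fold above the PFC (1.34, SE 0.21). Each step in the order midbrain, striatum, PFC was larger than the SD of either region. Sample ranges that did not overlap were found for 0.476% of all 21236 genes with PFC against midbrain, for 0.297% with striatum against midbrain and for 0.0188% with striatum against PFC. Calls by the thresholds of the study (effect of region with an adjusted p under 0.05, then a pairwise p under 0.05 and a fold change over 1.2) covered 5.99%, 6.47% and 3.14% of all genes in these pairs. Nothing is read from these shares for Fxyd5, because the same contrasts led to its choice.

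The order of the regions held for Fxyd5 within single mice. The PFC was below the midbrain in 11 of 11 mice, the striatum was below the midbrain in 12 of 12, and the striatum was above the PFC in 11 of 11. The counts against midbrain follow from the ranges that did not overlap and add nothing to them. All of these counts describe the contrasts that led to the choice of the gene. The size of the step varied more than its direction. The log2 difference between PFC and midbrain of the same mouse ran from -3.97 in mouse 4 to -1.74 in mouse 1. Between striatum and midbrain it ran from -3.28 in mouse 6 to -0.56 in mouse 9, and between striatum and PFC from 0.36 in mouse 6 to 3.32 in mouse 4. Mouse 6 had the highest midbrain level of Fxyd5, 34.5 CPM, with the next highest midbrain sample at 26.7 CPM, and it was also the sample with the high sum of border macrophage markers. Without that midbrain sample the log2 fold changes were -2.89, -1.55 and 1.34, close to those with it. The neuronal marker sum ran opposite to Fxyd5 over the 3 regions, at most 8.55 CPM in midbrain and at least 11.5 in PFC. Its part in the difference was not tested. A fit with an index of these markers kept the direction of all 3 differences. That fit can hardly separate the index from the step between midbrain and PFC.

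**Figure D1:**
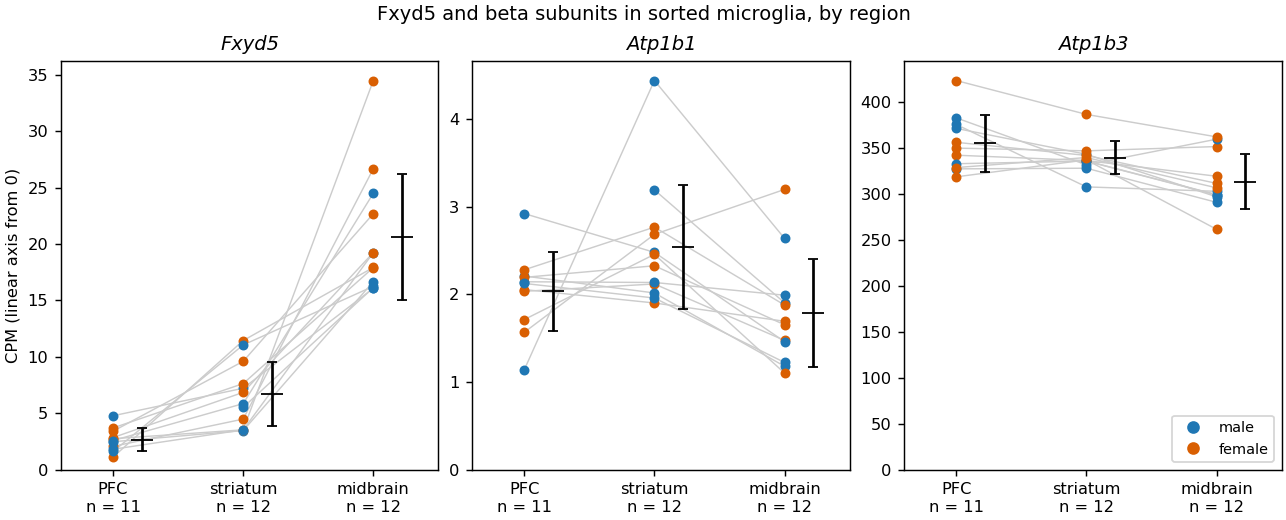
Level of Fxyd5, Atp1b1 and Atp1b3 in CPM (linear axes from 0, with a different scale in each panel) in the PFC (n = 11), striatum (n = 12) and midbrain (n = 12), with points for single samples coloured by sex, grey lines joining samples of a mouse and black bars for the mean ± SD. For Fxyd5 every midbrain point lies above the other two regions, while for Atp1b1 and Atp1b3 the regions overlap.

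The plot of the 3 genes by region shows how different their scales are. Per length, as CPM per kilobase of exon (RPKM), Atp1b3 was at 131 ± 12.6 in midbrain, 142 ± 7.51 in striatum and 149 ± 12.98 in PFC. Fxyd5 was at 4.93 ± 1.33, 1.59 ± 0.678 and 0.629 ± 0.248 RPKM in the same order. Atp1b1 was the lowest of the 3 in midbrain and striatum, at 0.578 ± 0.200 and 0.824 ± 0.230 RPKM. In the PFC, where it was at 0.660 ± 0.147 RPKM, Atp1b1 and Fxyd5 could not be separated by their spread.

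Atp1b3, the beta3 subunit, was abundant in every sample and differed little between regions. Its lowest, median and highest values were 262, 305 and 362 CPM in midbrain (mean 313 ± 30.2, n = 12), and 308, 337 and 387 CPM in striatum (339 ± 17.9, n = 12). In PFC they were 319, 350 and 423 CPM (355 ± 31.0, n = 11). The 3 ranges overlapped, and the steps from midbrain to striatum and from striatum to PFC were smaller than the larger SD of each pair. The step from midbrain to PFC was larger than the SD of either region. The log2 fold change was 0.18 for PFC over midbrain (SE 0.051), 0.11 for striatum over midbrain (SE 0.050) and -0.066 for striatum over PFC (SE 0.051). Within mice the small difference had mostly the same direction, with the PFC above the midbrain in 10 of 11 mice and the striatum above the midbrain in 10 of 12. Striatum and PFC had no common order, since the striatum was the higher one in 4 of 11 mice. The Fxyd5 and Atp1b3 means therefore stood in opposite orders over the regions, with the Fxyd5 span near 7.81-fold and that of Atp1b3 near 1.13-fold.

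Atp1b1, the beta1 subunit, was detected at a low level throughout. Its lowest, median and highest values were 1.10, 1.67 and 3.20 CPM in midbrain (mean 1.78 ± 0.615, n = 12). In striatum they were 1.90, 2.39 and 4.44 CPM (2.54 ± 0.709, n = 12), and in PFC 1.14, 2.12 and 2.92 CPM (2.03 ± 0.452, n = 11). All 3 ranges overlapped, and with 47 to 221 counts per sample the counting error adds to the spread. Striatum stood above midbrain by 0.51 on the log2 scale (SE 0.17), in 11 of 12 mice, and above PFC by 0.32 (SE 0.17), in 6 of 11 mice. PFC over midbrain was 0.19 (SE 0.17), with the PFC higher in 9 of 11 mice.

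The differences of Atp1b1 depended on which samples and which terms entered the fit. In mice 1 to 6, PFC over midbrain was -0.25, with means of 1.79 ± 0.426 CPM in PFC (n = 5) and 2.15 ± 0.646 in midbrain (n = 6). In mice 7 to 12 it was 0.66, with 2.24 ± 0.390 CPM in PFC and 1.41 ± 0.304 in midbrain (n = 6 each). With the index of neuronal markers as a further term, PFC over midbrain was -0.36 (SE 0.26) and striatum over midbrain was 0.088 (SE 0.22). The neuronal marker sum was at most 8.55 CPM in midbrain and at least 11.5 in PFC. This fit can therefore hardly separate the index from the step between midbrain and PFC. Mouse 1 held both the lowest PFC value, 1.14 CPM, and one of the higher midbrain values, 2.64 CPM, so that it had the most negative difference of PFC and midbrain, -1.18. Neuronal marker sums and Atp1b1 were both lowest in midbrain, but the sums were highest in PFC and Atp1b1 was highest in striatum. With the index, striatum over PFC was 0.45, beside 0.32 without it. The part of neuronal RNA in the Atp1b1 level was not tested.

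Expressed as a share of the summed RPKM of the 3 beta subunits, Atp1b3 made up 98.2% ± 0.638 in midbrain, 97.8% ± 0.840 in striatum and 98.5% ± 0.845 in PFC. The share of Atp1b1 was 0.432% ± 0.135, 0.566% ± 0.150 and 0.443% ± 0.118 in the same order. Between any pair of regions these shares differed by less than the larger SD of the pair. Atp1b2, the beta2 subunit and the remaining one on the list, was at 7.54 ± 3.80 CPM in midbrain, 9.57 ± 4.78 in striatum and 6.37 ± 4.62 in PFC. It did not pass the test for an effect of region (adjusted p = 0.571, edgeR quasi-likelihood F-test). The 7 astrocyte markers summed to 235 ± 17.4 CPM in midbrain, 350 ± 55.5 in striatum and 344 ± 73.2 in PFC. The summed beta level was 134 ± 12.7 RPKM in midbrain, 145 ± 7.32 in striatum and 151 ± 12.6 in PFC, so it followed Atp1b3.

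The FXYD family was made up differently in the 3 regions. Fxyd5 made up 72.6% ± 6.13 of the summed FXYD RPKM in midbrain, 44.7% ± 8.02 in striatum and 25.4% ± 11.8 in PFC. The sum itself was 6.74 ± 1.49 RPKM in midbrain, 3.49 ± 1.14 in striatum and 2.55 ± 0.658 in PFC. The shares and the sum carry the Fxyd5 difference and are no further evidence of it. Of the 6 other FXYD genes, all in the table, 0 passed the test in any pair in edgeR or in DESeq2. For PFC and midbrain, striatum and midbrain, and striatum and PFC, 5.99%, 6.47% and 3.14% of all genes passed in edgeR. In DESeq2 these shares were 6.68%, 7.62% and 3.64%, so 0 of 6 is near the share of all genes. Among the 6, 2 had an unadjusted p under 0.05 for the effect of region in both tools. Fxyd3, a family member known from epithelia, was at 4.42 ± 0.794, 3.50 ± 1.07 and 3.32 ± 0.569 CPM in midbrain, striatum and PFC (adjusted p of the region effect = 0.126). Like Fxyd5 it was lower in PFC than in midbrain in 10 of 11 mice (log2 fold change -0.42, SE 0.15). In striatum it was lower than in midbrain in 10 of 12 mice (-0.34, SE 0.15). Fxyd1, or phospholemman, was at 0.776 ± 0.649, 1.42 ± 0.903 and 1.07 ± 0.671 CPM (adjusted p = 0.331). It was higher than in midbrain in the PFC of 7 of 11 mice and in the striatum of 8 of 12. The remaining 4, Fxyd2, Fxyd4, Fxyd6 and Fxyd7, had means under 1 CPM over all samples.

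**Figure D2:**
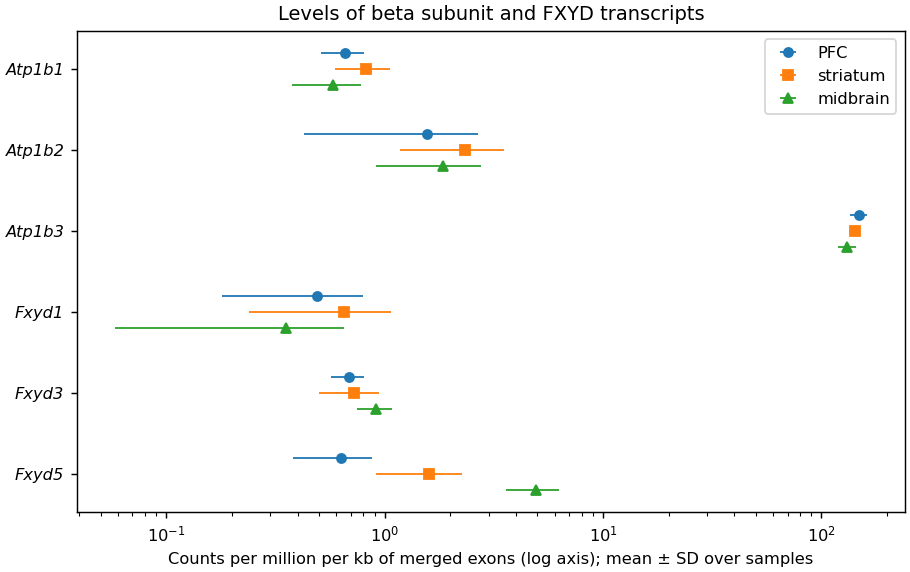
Mean ± SD over samples of the level per length (RPKM, log axis) of the beta subunit and FXYD genes with a mean of at least 1 CPM, in PFC (circles, n = 11), striatum (squares, n = 12) and midbrain (triangles, n = 12). Atp1b3 stands highest at 131 to 149 RPKM, and of the genes shown Fxyd5 has the widest gap between midbrain and PFC, 4.93 against 0.629.

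The lists of other beta subunits and FXYD genes, of carriers, of kinases and partners and of related pumps held 40 genes besides the 3 chosen ones, of which 33 were in the table and 20 had a mean of at least 1 CPM. They were drawn up with earlier results of these data known. Between PFC and midbrain 1 of the 33 passed the test, lower in PFC, against 3.24% of all genes called lower. For striatum and midbrain 1 passed, higher in striatum, against 3.5% called higher and 2.98% called lower. For striatum and PFC 3 passed, all higher in striatum, against 2.31% called higher. With the mouse number as a block, 2, 2 and 2 passed in these pairs, against 6.85%, 8.62% and 4.86% of all genes. With the pairwise p adjusted as well, 0, 1 and 1 of the 33 passed, against 5.11%, 5.25% and 0.518% of all genes. The median log2 fold change over the 33 genes was -0.0016, 0.18 and 0.081 in these pairs, beside 0.011, 0.012 and 0.0081 over all genes.

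The genes that passed were Atp2a3, Sgk1 and Stk39. Atp2a3, a calcium pump of the endoplasmic reticulum known from blood and immune cells, was at 6.21 ± 2.11 CPM in midbrain, 7.20 ± 2.69 in striatum and 3.92 ± 1.53 in PFC. It was lower in PFC than in midbrain by -0.68 (SE 0.22, edgeR adjusted p = 0.0584), in 10 of 11 mice, and lower in PFC than in striatum in 11 of 11, with striatum over PFC at 0.89 (SE 0.22, adjusted p = 0.0501). In this fit both calls rested on the unadjusted pairwise p of the study's thresholds. With the mouse number as a block the differences were -0.63 and 0.85 and both passed on the adjusted p as well (edgeR adjusted p = 0.00459 and 0.00133), as they did in DESeq2 (adjusted p = 0.0331 and 0.0102). The calls were lost in 3 alternatives with the differences as large or nearly so. These were -0.64 (SE 0.24) and 0.87 (SE 0.24) when mouse 4 was left out, -0.69 (SE 0.37) and 0.89 (SE 0.24) with the index of neuronal markers in the fit, and -0.94 (SE 0.33) and 1.08 (SE 0.33) in mice 1 to 6 alone.

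Sgk1, a kinase known to raise sodium transport and pump activity, was the most abundant gene on the lists, at 2531 ± 444 CPM in midbrain, 3018 ± 379 in striatum and 2237 ± 426 in PFC. Striatum exceeded PFC by 0.44 (SE 0.096, adjusted p = 0.0223), in 11 of 11 mice, although the ranges overlapped. With the block Sgk1 was also called for striatum over midbrain, at 0.264 (edgeR adjusted p = 0.00896). Without the block this difference was 0.256 (SE 0.094) and missed a call only by the fold change of 1.2. Striatum was above midbrain in 12 of 12 mice. The call for striatum over midbrain also appeared with the neuronal index (0.30), without the midbrain sample of mouse 6 (0.27) and in 5 of the 12 fits that left out a mouse. The Sgk1 call for striatum over PFC held in all 12 of those fits. It was lost in each separate fit of 6 mice, at 0.46 for mice 1 to 6 (edgeR adjusted p of the region effect = 0.0548) and 0.45 for mice 7 to 12 (0.0607). Stk39, a kinase acting on cation-chloride cotransporters, had a mean under 1 CPM and is named only because it passed. It was at 0.329 ± 0.165 CPM in midbrain, 0.767 ± 0.568 in striatum and 0.368 ± 0.167 in PFC, from 2 to 118 counts per sample. Its striatum level exceeded midbrain by 1.17 (SE 0.35, adjusted p = 0.0326) and PFC by 1.04 (SE 0.36, adjusted p = 0.188). Both calls of Stk39 were lost with the mouse number as a block (1.09 and 0.95, edgeR adjusted p of the region effect = 0.0531), without the striatum sample of mouse 3 (striatum over midbrain 1.14), with the neuronal index (also 1.14), in mice 1 to 6 alone, in mice 7 to 12 alone and in 8 of the 12 fits that left out a mouse (mouse 1, 2, 3, 4, 7, 9, 10 or 12).

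No other gene on the lists passed in any pair in the edgeR fit without the block. The carriers driven by the sodium or potassium gradient had 0 of 7 reported genes called in each pair, also in DESeq2. Over all genes the edgeR shares were 5.99%, 6.47% and 3.14%, and those of DESeq2 were 6.68%, 7.62% and 3.64%. Of the 7 carriers, 0 had an unadjusted p under 0.05 for the effect of region. Among them were Slc12a2 (the cotransporter NKCC1) at 83.4 CPM, Slc12a4 (the cotransporter KCC1) at 21.4, Slc12a7 (KCC4) at 13.6 and Slc8a1 (the sodium-calcium exchanger NCX1) at 13.3 CPM on average over all samples. Of the other kinases and partners, Wnk1 was at 68.9 CPM, Nedd4l at 14.3, Oxsr1 at 11.9, Wfs1 at 5.82, Sik1 at 4.01 and Nkain4 at 1.54. Of the calcium pumps, Atp2c1 was at 240.1 CPM, Atp2a2 at 98.5, Atp2b1 at 60.8 and Atp2b2 at 1.04. Ccl2, a chemokine gene that has been linked to FXYD5, was at 233 CPM with log2 fold changes of -0.51 and -0.47 for PFC and striatum over midbrain, and it did not pass the test for an effect of region in edgeR (adjusted p = 0.0613). Its result depended on the setting, since Ccl2 was called for both pairs in DESeq2, in edgeR with filterByExpr (adjusted p of the region effect = 0.0485), with the mouse number as a block (-0.58 and -0.49, edgeR adjusted p = 0.0112 and 0.0244) and when mouse 6 was left out.

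**Figure D3:**
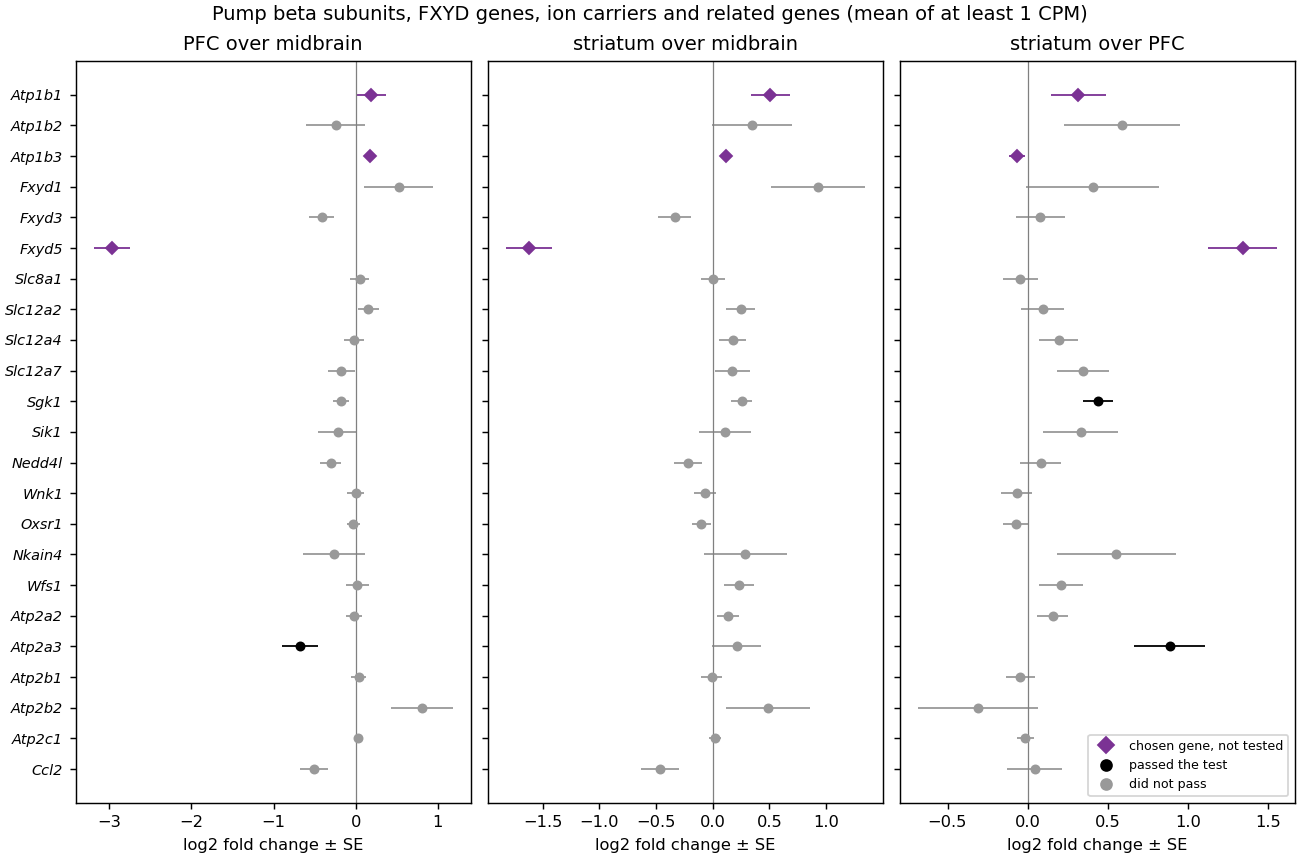
Log2 fold change ± SE from the edgeR fit for the chosen and listed genes with a mean of at least 1 CPM, for PFC over midbrain, striatum over midbrain and striatum over PFC, with purple diamonds for Fxyd5, Atp1b1 and Atp1b3, which were not tested, black circles for genes that passed and grey circles for those that did not. Most genes lie near 0, while Fxyd5 is at -2.96, -1.62 and 1.34.

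The comparison of males with females was independent of how the 3 genes were chosen. In midbrain the lowest, median and highest Fxyd5 values were 16.1, 16.5 and 24.5 CPM in males and 17.9, 20.97 and 34.5 CPM in females (n = 6 each). In striatum they were 3.45, 5.68 and 11.05 CPM in males and 3.52, 7.23 and 11.4 CPM in females (n = 6 each). In PFC the 5 male values were 1.60, 1.80, 2.47, 2.57 and 4.77 CPM, and the female values ran from 1.10 to 3.69 CPM with a median of 2.79 (n = 6). The sexes overlapped in each region. Over all regions Fxyd5 was at -0.21 in males relative to females (log2 fold change, 95% interval -0.54 to 0.12, edgeR adjusted p = 0.881), a difference that did not pass the test, and 0.339% of all genes did.

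Atp1b1 and Atp1b3 did not pass the test for sex either. For Atp1b1 the log2 fold change of males over females was 0.066 (95% interval -0.21 to 0.34, edgeR adjusted p = 0.977). For Atp1b3 it was -0.037 (95% interval -0.12 to 0.044, adjusted p = 0.939), the narrowest of the 3 intervals. This fit takes the samples of a mouse as independent. Of the 95% intervals from fits that take account of the mouse, the one reaching farthest from 0 is given for each gene. It ran from -0.63 to 0.082 for Fxyd5 (limma with a random block). For Atp1b1 it ran from -0.20 to 0.39 and for Atp1b3 from -0.17 to 0.078 (edgeR on counts summed per mouse). The limma interval of Atp1b1, from -0.27 to 0.37, was wider and reached lower. These intervals are not adjusted for the number of genes. These leave room for sex differences of up to 1.54-fold in Fxyd5 and 1.12-fold in Atp1b3, both lower in males, and of up to 1.31-fold in Atp1b1, higher in males.

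Within single regions the Fxyd5 log2 fold change of males over females was -0.35 in midbrain (SE 0.28), -0.25 in striatum (SE 0.29) and 0.0072 in PFC (SE 0.31). That of Atp1b1 was -0.083 (SE 0.25), 0.19 (SE 0.24) and 0.093 (SE 0.26), and that of Atp1b3 was -0.049 (SE 0.071), -0.075 (SE 0.071) and 0.020 (SE 0.075). None of these 9 differences passed, with an edgeR adjusted p of 1 for each and 0.0377%, 0.033% and 0.0659% of all genes passing in midbrain, striatum and PFC. A test of whether the sex difference itself differed between regions gave unadjusted p-values of 0.691 for Fxyd5, 0.734 for Atp1b1 and 0.645 for Atp1b3 in the edgeR fit, and 0% of all genes passed it after adjustment. Of the 21236 genes, 632 had an unadjusted p under 0.05 for it in edgeR, and in DESeq2 489 did and 1 passed after adjustment.

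A mouse gave up to 3 samples, so the sexes were also compared over mice, with each sample centred on its region and averaged per mouse. In the exact permutation test over 6 males and 6 females (two-sided), the log2 difference of males and females was -0.21 for Fxyd5 (p = 0.173), 0.051 for Atp1b1 (p = 0.665) and -0.035 for Atp1b3 (p = 0.569). With adjustment over the 3 genes the permutation p-values were 0.519, 0.665 and 0.665, and the smallest p that 6 against 6 mice can give is 0.00216. Of the 33 other listed genes, 0 passed the test for sex after adjustment in edgeR and 0 in DESeq2, the smallest edgeR adjusted p being 0.210, and 2 had an unadjusted p under 0.05 (Slc8a2 and Sik1, named after their values were seen).

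**Figure D4:**
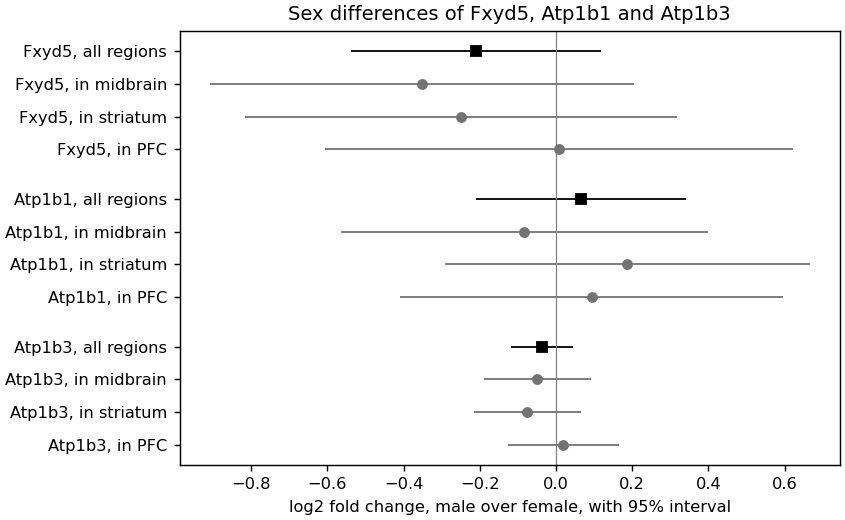
Log2 fold change of males over females with its 95% interval for Fxyd5, Atp1b1 and Atp1b3, over all regions (black squares, 35 samples) and within each region (grey circles), from the edgeR fits. All 12 intervals include 0, and those of Atp1b3 are the narrowest.

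No relation between the 3 genes over mice passed the test, which 12 mice make a coarse one. After centring on region and sex and averaging per mouse, Pearson's r between Fxyd5 and Atp1b1 was 0.124 and Spearman's rho 0.0769 (permutation p = 0.693 and 0.816, 12 mice). Between Fxyd5 and Atp1b3 they were -0.124 and -0.0350 (permutation p = 0.709 and 0.921). Between Atp1b1 and Atp1b3 they were 0.298 and 0.259 (permutation p = 0.356 and 0.417). Over the 3 relations computed, the adjusted permutation p was 0.709 for each r and 0.921 for each rho. Without the 2 mice farthest from the median of the first gene, r was 0.257, -0.212 and 0.329 in the same order. The sign was not the same in mice 1 to 6 and mice 7 to 12 for every pair, with r at 0.603 and 0.0464 for Fxyd5 and Atp1b1, -0.0826 and 0.495 for Fxyd5 and Atp1b3, and 0.311 and -0.395 for Atp1b1 and Atp1b3.

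The genes whose levels were most like that of Fxyd5 over the 35 samples, with the comparison limited to genes that averaged 8 CPM or more, were Anxa5 (r = 0.928), Emp3 (0.911), Cybb (0.907), Capg (0.906) and Haao (0.905). All 5 had the order midbrain, striatum, PFC, which the choice by r over samples of all regions favours, so it is no separate finding. Cybb, the catalytic subunit of the phagocyte NADPH oxidase, was at 19.1, 4.69 and 2.05 CPM in these regions, a span close to that of Fxyd5. Emp3, a membrane protein, was at 46.1, 21.2 and 10.6 CPM. Anxa5, which binds phosphatidylserine, was at 119 CPM in midbrain, 82.2 in striatum and 67.1 in PFC. Capg, which caps actin filaments, was at 78.4, 37.2 and 30.9 CPM, and Haao, an enzyme of tryptophan breakdown, was at 22.2, 14.6 and 10.5 CPM.

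For Atp1b3 the most alike were Spcs2 (r = 0.803), Smim14 (0.783), Npl (0.782), Cib1 (0.759) and Bcas2 (0.755), each, like Atp1b3, lowest in midbrain and highest in PFC. Spcs2, a subunit of the signal peptidase, was at 386 CPM in midbrain, 413 in striatum and 433 in PFC. For Atp1b1 the correlations were weaker, with Pltp at r = 0.638, Dnase2a at 0.636, Tgfb1 at 0.595, Agpat1 at 0.582 and Gpm6b at 0.581. These values describe samples that share regions and mice, so no p-value is attached. They were not centred on region, so a region order like that of the chosen gene is partly built into the choice. Between the 3 genes themselves, r over the 35 samples was -0.275 for Fxyd5 and Atp1b1, -0.467 for Fxyd5 and Atp1b3 and 0.222 for Atp1b1 and Atp1b3.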

How the data were processed

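RNA of sorted tdTomato-positive cells was made into cDNA with a Smart-Seq kit and into unstranded Nextera XT libraries, per the labels. The authors checked reads with FastQC, trimmed them with Trimmomatic and mapped them to GRCm38 with HISAT2. The deposited counts are raw read counts per gene. The authors describe keeping those with at least 1 CPM in a group of region and sex. The table nonetheless holds genes far below that level, such as Atp2b4, with means of 0.035 CPM in midbrain, 0.023 in striatum and 0.061 in PFC. The shares of all genes given above include such genes. The counting tool is not given in the sources used here.

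The counts were scaled with TMM factors and fitted with edgeR 4.0.16 (quasi-likelihood, robust, region plus sex, Benjamini-Hochberg over 21236 genes, R 4.3.3). The SE is the log2 fold change divided by the square root of F, and 95% intervals are 1.96 SE to each side. CPM used a prior count of 2 on the log2 scale. Gene symbols and exon lengths came from GENCODE M21 and matched 21103 genes. The fit was tested on simulated data. Replicate samples were separate mice.

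The members and the lists were chosen with earlier results of these data known. Listed genes that averaged 1 CPM or more were named, as were the 5 genes most like each chosen gene. One column is named as PFC of mouse 3 but belongs by its label to the striatum, and was used so. The mouse number in the labels was taken as the animal: deviations from group means correlated at 0.225 on average over 34 pairs of the same number, against -0.0431 over 170 other pairs. DESeq2 1.42.0, limma 3.58.1 and other settings were tried as alternatives. Of the genes on the lists, 6 are not reported here.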

Additional observations from a re-analysis of the deposited data

Results flagged for a closer look

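In the groups of region and sex, 5 of the 18 sets of values of Fxyd5, Atp1b1 and Atp1b3 held a sample whose gap to the nearest other sample was large against the range of its group (Dixon's criterion, which flags about 1 in 20 groups by chance). Mouse 6, a female, had 3 of them. Its Atp1b1 level in midbrain was 3.20 CPM, against a median of 1.67 in that group, its Atp1b3 level in PFC was 423 CPM against a median of 346, and its Atp1b3 level in striatum was 386.6 CPM against a median of 341. Mouse 5 had the highest Atp1b3 level of the male midbrain samples, 359.6 CPM, against a median of 299. Mouse 11 had the highest Fxyd5 level of the male midbrain samples, 24.5 CPM, against a median of 16.5.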

How the results depend on the processing

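The log2 fold change of Fxyd5 kept its direction under all alternatives run, from -3.03 to -2.72 for PFC over midbrain, from -1.84 to -1.43 for striatum over midbrain and from 1.18 to 1.51 for striatum over PFC. With 1 mouse left out at a time these were -3.15 to -2.89, -1.75 to -1.49 and 1.17 to 1.47. Those of Atp1b3 also kept their direction. For Atp1b1, PFC over midbrain was -0.36 with the index of neuronal markers, -0.25 in the fit of mice 1 to 6 and 0.66 in that of mice 7 to 12, while striatum over midbrain was 0.088 with that index. With the mouse number as replicate block the Fxyd5 values were -3.03, -1.67 and 1.36, and with a random block in limma its sex difference was -0.27 (adjusted p = 0.9999). Differences of the 3 genes between regions carry no call, so the block could change none of them, and in limma it left the sex differences short of the threshold.

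Of the 33 listed genes 1, 1 and 3 were called for PFC over midbrain, striatum over midbrain and striatum over PFC. For the first and second of these, 2 were called with DESeq2 (6.68% and 7.62% of all genes), 2 of the 26 kept by filterByExpr (6.91% and 7.83%) and 2 with the block (6.85% and 8.62%), and 2 for the second without the midbrain sample of mouse 6 (5.93%). With the neuronal index 0 were called for PFC over midbrain (2.62% of all genes) and 1 for striatum over PFC (416 of 21236 genes). The fold changes of Atp2a3, whose calls were among those lost there, were -0.69 and 0.89, beside -0.68 and 0.89 without the index, with a larger SE. When the pairwise p was adjusted, 0 and 1 were called in these pairs. Without the striatum sample of mouse 3, 0 were called for striatum over midbrain (6.4% of all genes), where Stk39 lost its call. With 1 mouse left out the calls numbered 0 (mouse 4) to 2 (mouse 6) for PFC over midbrain. For striatum over midbrain they numbered 0 (mouse 1, 7, 9, 10 or 12) to 2 (mouse 5, 6 or 8), and for striatum over PFC 1 (mouse 4) to 3. In these fits 4.87% to 5.68%, 4.94% to 6.34% and 2.36% to 3.03% of all genes were called in the 3 pairs.

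Sex differences never passed the test. In mice 7 to 12 that of Atp1b1 was -0.083 and that of Atp1b3 0.0030. With 1 mouse left out, Atp1b1 ran from -0.014 to 0.14 over regions, -0.24 to 0.16 in midbrain, -0.022 to 0.26 in striatum and -0.056 to 0.25 in PFC. Atp1b3 ran from -0.068 to 0.011 over regions and -0.0035 to 0.085 in PFC, and Fxyd5 from -0.32 to 0.14 in PFC. Over mice, the difference of Atp1b1 ran from -0.00013 to 0.10 and that of Atp1b3 from -0.066 to 0.0054. The correlations ran from -0.129 to 0.411 for Fxyd5 and Atp1b1, -0.293 to 0.0246 for Fxyd5 and Atp1b3, and -0.0192 to 0.395 for Atp1b1 and Atp1b3.

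Leaving out the midbrain sample of mouse 6 and following Atp2a3, Sgk1, Stk39 and Ccl2 through the alternatives were chosen after seeing the data. The low counts of Atp1b1 limit what can be said of it.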
